A study of Mus musculus with 3 samples.

Results

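The 4 genes that encode the subunits of the AMPA-type glutamate receptor, *Gria1*, *Gria2*, *Gria3* and *Gria4*, were taken by name from the 32285 genes of each count matrix and described in single nuclei of the mouse prefrontal cortex (PFC). All 4 were found in all 3 libraries. Each library came from male mice of 6 to 8 weeks of age. The C57BL/6 library was made from the pooled PFC of 5 wild-type C57BL/6 mice, and the *Nav1* KO library from the pooled PFC of 4 mice of the same strain that carry a Cas9-made deletion near the 5′ end of *Nav1*, a gene of neuronal microtubule regulation. The BTBR library came from BTBR T<+> Itpr3<tf>/J mice, an inbred strain that differs from C57BL/6 at many loci, pooled from a number of animals that the sources used here do not state. Stained nuclei were sorted from the NeuN+ and the NeuN- gates, NeuN being a protein of most neuronal nuclei, so that the numbers of neurons and glia were set in part by the sort. Of 45263 barcodes, 43463 were kept for holding 200 or more genes and mitochondrial counts below 10%, which were 14630 C57BL/6, 14056 *Nav1* KO and 14777 BTBR nuclei with 38704723, 50965774 and 48939692 counts.

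With 1 library per group there was no replicate and no test between the groups. Each level is the count of a gene summed over the nuclei of a class, scaled to 1000000 counts of those nuclei (CPM). Intervals are exact, at 95%, and hold counting error only, and a difference between libraries cannot be told apart from a difference between pools, dissections or library preparations. Values for the libraries are given in the order C57BL/6, *Nav1* KO and BTBR. *Nav1* itself stood at 345, 264 and 146 CPM over all kept nuclei. The kit tags the 3′ end of transcripts, outside the deleted part, so the 264 CPM of the library labelled *Nav1* KO check neither its label nor the deletion. Between 55 and 66 cell barcodes were shared by 2 libraries, at most 0.470% of the smaller one.

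AMPA receptors carry most of the fast excitatory current in the brain. Each is an assembly of 4 subunits, and its makeup sets its conductance, its speed and whether calcium can pass. The transcript of *Gria2* is edited by an adenosine deaminase at the codon for a pore residue, the Q/R site, which changes glutamine to arginine, and receptors that hold the edited subunit pass little calcium. Receptors without *Gria2* pass calcium and are known from several types of interneuron and from some glia. *Gria1* is the subunit best known from activity-dependent insertion into synapses, *Gria3* pairs mostly with *Gria2*, and *Gria4* is known from fast receptors of interneurons.

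The coding sequence around the Q/R site is shown because it is where the 4 subunits are functionally split while most letters are shared. In GRCm38, *Gria1* (ENSMUSG00000020524) lies on chromosome 11 from 57011387 to 57330244 on the plus strand, *Gria2* (ENSMUSG00000033981) lies on chromosome 3 from 80681450 to 80802835 on the minus strand, *Gria3* (ENSMUSG00000001986) lies on chromosome X from 41400854 to 41678601 on the plus strand and *Gria4* (ENSMUSG00000025892) lies on chromosome 9 from 4417896 to 4796234 on the minus strand. The 4 identifiers are those of the matrices. The genomic codon is at chr11:57243094-57243096 in exon 11 of 16 in *Gria1*, chr3:80706911-80706913 in exon 11 of 16 in *Gria2*, chrX:41610265-41610267 in exon 11 of 16 in *Gria3* and chr9:4464137-4464139 in exon 12 of 17 in *Gria4*, counted in 1 protein-coding transcript per gene. Each stretch below is 63 bases of the GENCODE transcript in the 5′ to 3′ direction with the genomic codon in capitals, and it crosses an exon junction.
Gria1: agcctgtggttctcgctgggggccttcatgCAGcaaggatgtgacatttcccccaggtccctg
Gria2: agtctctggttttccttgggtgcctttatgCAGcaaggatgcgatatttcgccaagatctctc
Gria3: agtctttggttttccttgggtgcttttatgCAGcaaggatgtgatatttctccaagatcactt
Gria4: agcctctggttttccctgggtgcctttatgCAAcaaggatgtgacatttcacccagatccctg
All 4 genomic codons encode glutamine, as CAG in 3 genes and CAA in *Gria4*. The lowest identity over the 63 bases was 77.8%, for *Gria1* with *Gria2* and with *Gria3*, and the highest was 90.5%, for *Gria2* with *Gria3*. The matrices hold counts per gene, so neither editing at this codon nor the alternative flip and flop exons were measured.

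Nuclei of the 3 libraries were clustered together, with the 4 genes kept out of the variable genes, into 31 clusters. By marker lists, 20 clusters with 23526 nuclei were given 16 class names, and 19937 nuclei in 11 clusters stayed unnamed. The named cortical excitatory classes resembled layer 2/3 (*Otof*, *Rasgrf2*), layer 5 extratelencephalic (*Pou3f1*), layer 6 corticothalamic (*Hs3st4*, *Rprm*) and near-projecting neurons (*Tshz2*, *Vwc2l*), and together held 3718, 3596 and 2977 nuclei. The cortical interneuron classes were an Sst-like class, which also held nuclei with *Pvalb*, and a Vip-like class, which also had *Adarb2* and *Kit* among its leading genes. Although the label of every sample reads PFC neurons, medium spiny-like nuclei of the striatum, mitral or tufted-like and GABA-like nuclei of the olfactory bulb, glia, endothelial-like cells and meningeal fibroblast-like cells were also found. The mitral or tufted-like class held only 36 nuclei of the C57BL/6 library, beside 606 and 286 of the others, and the olfactory bulb GABA-like class 114, 814 and 658 nuclei. The layer 2/3-like class was made of cluster 2, mostly C57BL/6 and *Nav1* KO nuclei, and cluster 8, with 1660 of 1711 nuclei from BTBR, so that comparisons of BTBR within this class set different clusters side by side.

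*Gria2* counts made up the largest part of the AMPA subunit counts in every class, with a mean over the libraries of 73.6% in the cortical excitatory classes, 19.98% for *Gria3*, 3.86% for *Gria1* and 2.56% for *Gria4*. The 4 genes together held 0.659%, 0.629% and 0.758% of all counts of those nuclei. Counts of different genes are not on 1 scale, because the exons of *Gria2* cover 15548 bases, against 6043 for *Gria1*, 9859 for *Gria3* and 6305 for *Gria4*, while the whole gene is shortest for *Gria2*. Divided by exonic length, the *Gria2* share of the cortical excitatory classes was 60.7%, and divided by gene span 87.0%. *Gria2* stayed the largest of the 4 in each named class on both scales, from 52.5% in the Sst-like class to 85.4% in the astrocyte-like class per exonic length and from 84.9% to 96.7% per span in the same classes. The order of the other 3 depended on the scale in some classes. In the near-projecting-like class *Gria4* came before *Gria3* per exonic length (14.4% against 11.3%) and after it per span (2.53% against 4.21%). Below, a share is of counts and is compared only for 1 gene between classes.

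**Figure D1:**
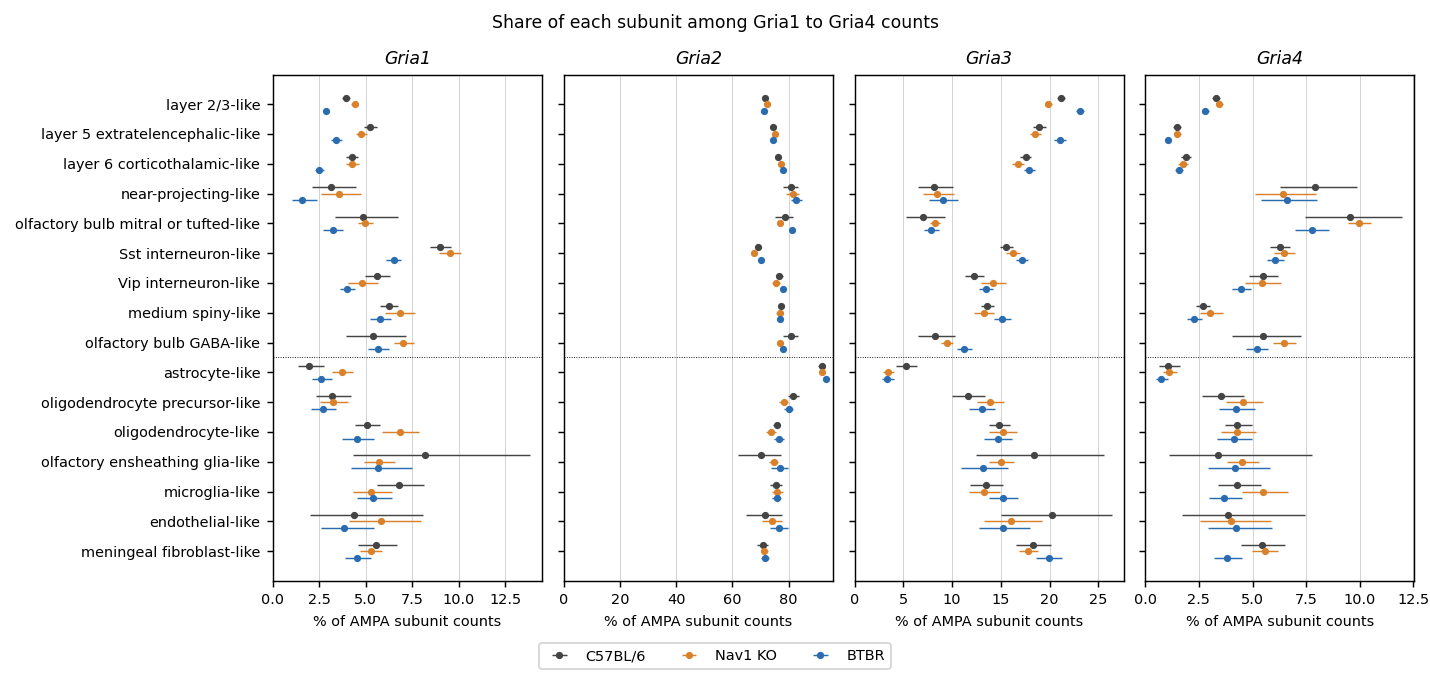
Share of each subunit in percent of the *Gria1* to *Gria4* counts of a class (horizontal axis, starting at 0) for 16 marker-named classes, neurons above the dotted line and other cells below it. Points are the 3 libraries and bars exact 95% intervals for counting error; the *Gria2* share is highest in the astrocyte-like class (91.8 to 93.3%) and lowest in the Sst-like class among neurons (67.8 to 70.3%).

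Among neurons the Sst-like class had the smallest *Gria2* share, 69.2, 67.8 and 70.3% in the 3 libraries, and the near-projecting-like class the largest mean, at 80.8, 81.5 and 82.8%. The layer 2/3-like class stood at 71.6, 72.3 and 71.2% and the layer 6 corticothalamic-like class at 76.3, 77.2 and 78.0%. These shares varied less between the libraries than between the classes at the ends of the order. The share of *Gria4* ran from 1.47, 1.49 and 1.04% in the layer 5 extratelencephalic-like class to 9.53, 9.97 and 7.76% in the mitral or tufted-like class, with the near-projecting-like class at 7.93, 6.44 and 6.62% and the Sst-like class at 6.27, 6.48 and 6.06%. *Gria3* held 21.2, 19.9 and 23.2% in the layer 2/3-like class and 8.14, 8.50 and 9.03% in the near-projecting-like class, the lowest of the cortical excitatory classes in all 3 libraries. *Gria1* was at 8.99, 9.51 and 6.49% in the Sst-like class, the highest of the neuronal classes in each library. Cluster 25, a part of the olfactory bulb GABA-like class, had 8.47, 10.4 and 7.78%.

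The level of *Gria1* was highest in the Sst-like class in 3 of 3 libraries, at 495, 483 and 414 CPM. Next were the medium spiny-like class at 362, 366 and 368 CPM, the olfactory bulb GABA-like class at 307, 400.4 and 382 CPM and the layer 5 extratelencephalic-like class at 390.3, 346 and 302 CPM. The medium spiny-like class was the third in each library, while the other two changed places. The near-projecting-like class was the lowest neuronal class in each library, with 167, 176 and 104 CPM, with a BTBR interval of 65.9 to 156 CPM from 23 counts. From the lowest to the highest neuronal class *Gria1* spanned 2.75-fold to 3.98-fold in a library. These are values of whole classes. Within the olfactory bulb GABA-like class, cluster 25, led by *Trh* and *Th*, had 465, 563 and 528 CPM from 17, 187 and 130 nuclei. That was above the Sst-like class in the *Nav1* KO and BTBR libraries. Cluster 13, the rest of that class, had 263, 324 and 317 CPM.

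*Gria2* varied least among the neurons, by 1.502-fold to 1.68-fold. The layer 5 extratelencephalic-like class came first in 3 of 3 libraries (5547, 5479 and 6605 CPM) and the layer 6 corticothalamic-like class second (4927, 4712 and 6504 CPM), although in 1 library their intervals overlapped. The classes in between did not hold 1 order, and the Sst-like (3812, 3445 and 4485 CPM) and Vip-like classes (3694, 3479 and 4401 CPM) did not differ beyond their intervals in any library.

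*Gria3* spanned 3.77-fold to 4.93-fold among neurons and kept the same 5 leading classes in the same order in every library. These were the layer 5 extratelencephalic-like (1415, 1348 and 1871 CPM), layer 2/3-like (1356, 1212 and 1609.5 CPM), layer 6 corticothalamic-like (1133, 1021 and 1494 CPM), Sst-like (858, 825 and 1094 CPM) and medium spiny-like classes (789.6, 713 and 968 CPM). The mitral or tufted-like class was the lowest neuronal class in each library, at 367, 358 and 379.7 CPM.

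*Gria4* had another order and spanned 4.08-fold to 4.68-fold. It was high in the mitral or tufted-like (497, 433 and 375 CPM), near-projecting-like (420.3, 319 and 434 CPM), Sst-like (346, 329 and 387 CPM) and olfactory bulb GABA-like classes (314, 369.9 and 350.1 CPM), whose order was not the same in the 3 libraries. The Vip-like class was the fifth in each, at 264, 250.4 and 252 CPM. In a finer clustering, described below, the Sst-like nuclei set apart from the *Pvalb*-like ones had 252, 269.6 and 281 CPM. The layer 6 corticothalamic-like class had 122, 106 and 129.6 CPM and the layer 5 extratelencephalic-like class 109.7, 109 and 92.7 CPM. The 2 excitatory classes of the deep layers that were near-projecting-like and extratelencephalic-like stood among the first 4 and the last 2 of the neuronal *Gria4* levels in every library, with no overlap between their values.

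**Figure D2:**
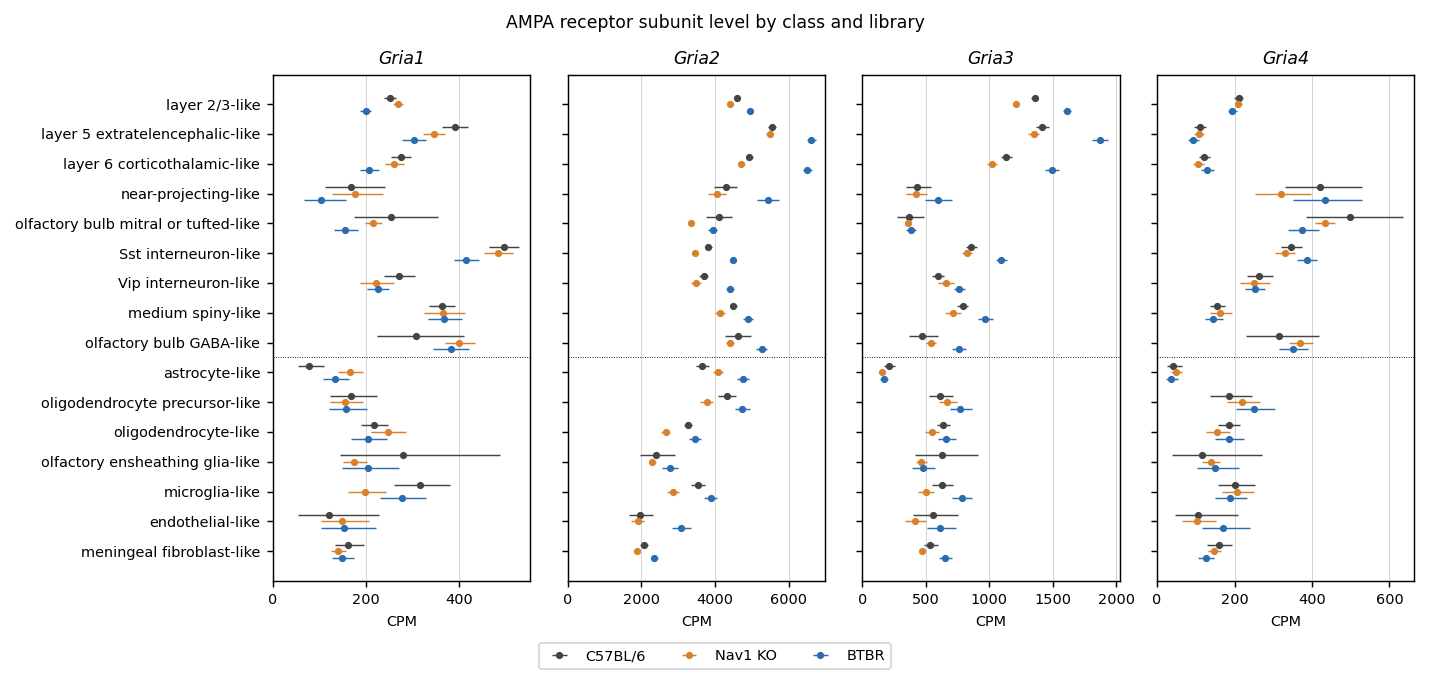
Level of each subunit in CPM (horizontal axes starting at 0, each panel with its own range) by class and library, with exact 95% intervals for counting error. *Gria3* is highest in the layer 2/3-like, layer 5 extratelencephalic-like and layer 6 corticothalamic-like classes (1021 to 1871 CPM), and *Gria4* in the mitral or tufted-like, near-projecting-like, Sst-like and olfactory bulb GABA-like classes (314 to 497 CPM). The Sst-like class also holds *Pvalb*-like nuclei, which had more *Gria4* than its Sst-like nuclei in a finer clustering.

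Set against the summed named cortical excitatory classes of the same library, Sst-like nuclei had more *Gria1* and *Gria4* and less *Gria2* and *Gria3*. Unnamed clusters are not in this sum. The largest, cluster 0, had more *Slc17a7* and *Slc17a6* (830 CPM) than *Gad1* and *Gad2* (21.2 CPM). Its *Gria4* was at 331, 298 and 346 CPM, close to the 346, 329 and 387 CPM of the Sst-like class. Its *Gria3*, at 734, 673 and 829.7 CPM, was lower than the Sst-like 858, 825 and 1094 CPM. The contrast of *Gria3* and *Gria4* is thus with the named classes alone. The *Gria1* ratio was 1.76, 1.73 and 1.90, with a C57BL/6 interval of 1.63 to 1.90, and that of *Gria4* was 1.98, 1.87 and 2.30. In a finer clustering that set nuclei with *Pvalb* apart, the mean *Gria4* ratio of the Sst-like cluster was 1.42, under 1.5-fold. The cortical excitatory classes of that clustering also held a *Rorb*-led cluster of 10, 24 and 1099 nuclei, mostly BTBR. Both sides of that mean ratio thus changed. The cortical excitatory classes used here had 175, 176 and 168 CPM of *Gria4*. The Sst-like cluster had 252, 269.6 and 281 CPM and the *Pvalb*-like cluster 427, 383 and 498 CPM. The Sst-like class thus joined nuclei with less and with more *Gria4*. For that class as a whole, 2 of the 4 subunits were past 1.5-fold on the higher side in 3 of 3 libraries, and 0 on the lower side. Of all genes with at least 50 counts, 8.34% and 5.66% were. *Gria2* stood at 0.788, 0.742 and 0.804 and *Gria3* at 0.659, 0.693 and 0.679. In the Vip-like class *Gria3* was past 1.5-fold on the lower side, at 0.455, 0.551 and 0.472, and no subunit on the higher side (all genes: 3.69% and 6.14%). Its *Gria4* ratios of 1.51, 1.42 and 1.5 lay around that limit.

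That clustering split the Sst-like class into an Sst-like cluster of 877 nuclei and a *Pvalb*-like cluster of 859. The 2 clusters differed in which subunit stood out. *Gria1* was at 567, 558 and 452 CPM in the Sst-like cluster and 422, 402 and 370.4 CPM in the *Pvalb*-like cluster, with separate intervals in each library. *Gria4* was at 252, 269.6 and 281 CPM and 427, 383 and 498 CPM, again with separate intervals in each library and in the other direction. As a share of the AMPA counts *Gria4* was 4.78, 5.40 and 4.68% in the Sst-like and 7.52, 7.50 and 7.48% in the *Pvalb*-like cluster. *Gria2* was lower in the Sst-like cluster in each library, also with separate intervals (3607, 3310.3 and 4276 against 3987, 3549 and 4585 CPM). For *Gria3* (854, 852 and 994 against 844, 778 and 1204 CPM) the intervals overlapped in the C57BL/6 and *Nav1* KO libraries and were separate in BTBR.

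The near-projecting-like class was compared with the other 3 named cortical excitatory classes. Its *Gria4* was 2.46, 1.84 and 2.68 times theirs, while *Gria3* stood at 0.328, 0.350 and 0.362 and *Gria1* at 0.590, 0.627 and 0.472. Past 1.5-fold in all libraries were thus 1 subunit on the higher and 2 on the lower side, beside 7.76% and 6.38% of all genes. *Gria2* was within the limit, at 0.884, 0.869 and 0.972. Unnamed clusters were left out of this comparison. Of these, cluster 0 had *Gria4* at 331, 298 and 346 CPM and cluster 27 at 415, 375 and 573 CPM. High *Gria4* was thus not particular to the near-projecting-like class, which had 420.3, 319 and 434 CPM. This class is small, with 102, 114 and 104 nuclei, and its nuclei had median UMI counts of 1594 to 2042, below the 3288 to 3912 of the layer 5 extratelencephalic-like class.

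In each class of neurons from outside the cortex *Gria3* was below the summed named cortical excitatory classes. The same held in the Sst-like and Vip-like classes. Within that sum the near-projecting-like class, at 432, 422 and 592 CPM, had lower values than the medium spiny-like and olfactory bulb GABA-like classes in each library. Cluster 0, outside the sum, was at 734, 673 and 829.7 CPM, below the medium spiny-like class. The ratio of *Gria3* to the summed classes was 0.282, 0.301 and 0.236 in the mitral or tufted-like class, 0.362, 0.454 and 0.470 in the olfactory bulb GABA-like class and 0.607, 0.599 and 0.600 in the medium spiny-like class. All 3 classes were past 1.5-fold on the lower side in every library, where 5.82%, 7.49% and 9.46% of all genes stood. *Gria4* was past the limit on the higher side in the mitral or tufted-like (2.84, 2.46 and 2.23) and olfactory bulb GABA-like classes (1.80, 2.10 and 2.08), beside 5.87% and 7.44% of all genes, but stood at 0.887, 0.926 and 0.867 in the medium spiny-like class. In that class no subunit passed on the higher side (6.15% of all genes did), and *Gria1* was at 1.29, 1.31 and 1.69. Its *Gria4* ratios were below 1 in each library, unlike those of the other GABA-type classes, among which the lowest *Gria4* ratio was 1.42.

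Among the unnamed clusters, cluster 0, the largest with 4839 nuclei and led by *Tnnc1*, *Scn7a* and *Rorb*, a gene of the middle cortical layers, had 331, 298 and 346 CPM of *Gria4* and 734, 673 and 829.7 CPM of *Gria3*. Cluster 27, led by *Nr4a2* and *Car3* among others, had the highest mean *Gria4* of the clusters and classes, at 415, 375 and 573 CPM. Cluster 5, led by *Ndst4* and *Abi3bp*, went the other way, with 127, 130.3 and 146 CPM of *Gria4* and the highest mean *Gria2*, 6068, 5850.4 and 6465 CPM. These clusters had 1.69 to 2.06, 2.13 to 3.41 and 0.727 to 0.869 times the *Gria4* of the named cortical excitatory classes.

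To count nuclei with at least 1 UMI of a subunit at equal depth, 1000 UMIs were drawn from every nucleus, and those with fewer were set aside, namely 1023 C57BL/6, 863 *Nav1* KO and 1006 BTBR nuclei of the named classes. *Gria4* was then found in 30.1, 24.7 and 29.7% of the Sst-like and 34.9, 25.7 and 33.0% of the near-projecting-like nuclei, and in 8.94, 11.7 and 7.85% of the layer 5 extratelencephalic-like nuclei. Microglia-like nuclei, which should lack neuronal transcripts, stood at 16.7, 13.8 and 16.3%, with median depths of 1642 to 1838 UMIs against 2413 to 3222 in the Sst-like class and 3288 to 3912 in the layer 5 extratelencephalic-like class. The *Gria4* share of the latter class was thus below that of microglia-like nuclei in every library. Microglia-like nuclei also held 6 neuronal transcripts, named below, at 0.457 to 0.765 times the cortical excitatory level, so they are not a floor free of neuronal RNA. In CPM the layer 5 extratelencephalic-like class had more *Gria4* than astrocyte-like nuclei, with separate intervals in 3 of 3 libraries. How much of its *Gria4* share is expression was not told apart. Without thinning, the *Gria4* shares were 54.2, 57.9 and 57.7% in the Sst-like, 27.6, 34.4 and 25.9% in the layer 5 extratelencephalic-like and 28.1, 30.8 and 27.3% in the microglia-like class. *Gria2* was found in 97.3 to 98.5% of thinned layer 2/3-like nuclei, and in 81.0 to 94.4% of thinned microglia-like nuclei. *Gria1* was found in 40.2, 36.6 and 34.6% of the Sst-like, 20.8, 23.1 and 18.5% of the layer 2/3-like and 26.7, 14.7 and 17.3% of the microglia-like nuclei, so that the layer 2/3-like share was above the microglia-like one in 2 of 3 libraries. *Gria3* was found in 70.9, 67.4 and 78.2% of the layer 2/3-like, 34.9, 28.4 and 44.7% of the near-projecting-like and 40.0, 29.3 and 49.0% of the microglia-like nuclei. In the near-projecting-like class *Gria3* stood below the microglia-like nuclei in each library, and *Gria1*, at 16.3, 20.2 and 11.7%, stood above them in the *Nav1* KO library alone.

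In the named classes 13726 nuclei had at least 10 AMPA subunit UMIs. All of them held a *Gria2* UMI, but *Gria2* makes most of the UMIs that decide which nuclei reach 10, and free RNA carries it into other nuclei, so this count sets no limit on nuclei that lack *Gria2*. All 4 subunits were found together in 44.6 to 56.7% of such Sst-like nuclei, against 13.9 to 14.2% of the layer 6 corticothalamic-like and 22.1 to 37.0% of the layer 2/3-like nuclei, without thinning. The microglia-like share was 35.7 to 45.5%. In each library the Sst-like share was above that of microglia-like nuclei and the layer 6 corticothalamic-like share was below it.

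Among glia, astrocyte-like nuclei had a level of *Gria2* close to that of neurons, with little *Gria3* and *Gria4*. Their *Gria2* level was 3648, 4076 and 4747 CPM, or 0.755, 0.878 and 0.851 times the cortical excitatory classes, and made 91.8, 91.8 and 93.3% of the AMPA counts. *Gria3* was at 208, 152 and 171 CPM and *Gria4* at 41.1, 48.7 and 37.1 CPM, the lowest levels of the 16 classes in every library. Since free neuronal RNA from 1 source keeps its genes in 1 ratio, the ratios were read beside those of 6 neuronal transcripts, *Slc17a7*, *Camk2a*, *Nrgn*, *Snap25*, *Rbfox3* and *Syt1*, which stood at 0.0911 to 0.420 in the astrocyte-like class. A subunit is called above them where its whole interval lay above the highest of the 6 in that library. *Gria2* was above them in 3 of 3 libraries. *Gria3* (0.160, 0.128 and 0.106) and *Gria4* (0.235, 0.276 and 0.221) were above them in no library. The BTBR value of *Gria3* lay below the lowest of the 6 in that library (0.126), with an interval of 0.0880 to 0.127. *Gria1* (0.276, 0.590 and 0.609) was above them in the *Nav1* KO and BTBR libraries. Cluster 12, which shared *Slc7a10* and *Slc1a3* with astrocytes but was not named, had 78.3 to 81.7% *Gria2*. Its median fold was 3.17 for the oligodendrocyte and 3.16 for the astrocyte list, and 43.3% of its nuclei were among the 10% of highest doublet scores. The finer clustering had a further astrocyte-like cluster of 738 nuclei, 61.2% of them with such scores. It had 776, 684 and 801 CPM of *Gria3* and 79.1, 78.1 and 81.5% *Gria2*. Whether these 2 clusters hold mixed nuclei was not tested.

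Oligodendrocyte precursor-like nuclei, the glia known to receive synapses from neurons, also had *Gria2* above the 6 transcripts in 3 of 3 libraries (0.893, 0.811 and 0.849 against 0.308 to 0.714). Their *Gria4* was 1.06, 1.25 and 1.49 times that of the cortical excitatory classes, again above all 6 in each library, and the intervals of *Gria1* and *Gria3* reached into the range. With the clustering settings of the study the mean *Gria4* ratio of this class was 0.865, below 1. In the finer clustering 2 precursor-like clusters differed in *Slc17a7*, the vesicular glutamate transporter of cortical neurons, which stood at 101 to 192 CPM in the first and 528 to 576 CPM in the second. Their *Gria2* was 3779 to 4892 and 3761 to 4661 CPM, so that the cluster with less *Slc17a7* did not have less *Gria2*. In the first cluster 2.91% of nuclei, and in the second 65.4%, were among the 10% of highest doublet scores. The finer clustering had 3 mature oligodendrocyte-like clusters. The largest, of 551 nuclei, had *Slc17a7* at 299 to 345 CPM and *Gria2* at 3009.6 to 3639 CPM, another had *Slc17a7* at 166 to 212 CPM and *Gria2* at 1046 to 1293 CPM, and the last had *Slc17a7* at 468 to 533 CPM and *Gria2* at 3206 to 4233 CPM. In that order 19.96, 0.813 and 24.4% of their nuclei were among the 10% of highest doublet scores, with median depths of 6581, 944.5 and 3118 UMIs. The largest also had a median fold of 4.14 for the microglia list, beside 4.76 for the oligodendrocyte list. Whether these oligodendrocyte-like and precursor-like clusters hold mixed nuclei was not tested.

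In the oligodendrocyte-like, microglia-like, endothelial-like, olfactory ensheathing glia-like and meningeal fibroblast-like classes the *Gria2* ratio (0.573 to 0.674, 0.615 to 0.729, 0.407 to 0.553, 0.494 to 0.495 and 0.407 to 0.428) stayed within the range of the 6 transcripts in every library. *Gria4* was above them in 3 of 3 libraries in the microglia-like (1.15, 1.17 and 1.12) and fibroblast-like classes (0.909, 0.838 and 0.745), although the mean microglia-like ratio was 0.978 with classes from markers alone and 0.928 as a mean of single nuclei. Within the fibroblast-like class *Gria4* was at 43.9, 40.4 and 57.7 CPM in cluster 15, its largest, and at 181, 178 and 107 CPM in cluster 18. Cluster 28, with 76.2% of nuclei among the 10% of highest doublet scores, had 242, 183 and 209 CPM. *Gria4* was above the 6 transcripts in 2 libraries in the oligodendrocyte-like (1.05, 0.880 and 1.10) and olfactory ensheathing glia-like classes (0.664, 0.784 and 0.896). *Gria1* was above them in 2 libraries, as in the astrocyte-like class, in the microglia-like (1.13, 0.712 and 1.27) and oligodendrocyte-like classes (0.769, 0.882 and 0.936), and in 1 library in the fibroblast-like and olfactory ensheathing glia-like classes. The makeup of the microglia-like counts (5.82% *Gria1*, 75.7% *Gria2*, 14.0% *Gria3* and 4.49% *Gria4*) lay close to that of all kept nuclei (4.57%, 75.3%, 16.4% and 3.78%). Some of the 6 transcripts, such as *Slc17a7*, are mostly of excitatory neurons, while *Syt1* stood at 1608, 1495 and 1546 CPM in the Sst-like class. *Gria4* is higher in interneurons and olfactory bulb neurons than in the summed named cortical excitatory classes, which had 175, 176 and 168 CPM. Unnamed clusters are not in that sum. Of these, cluster 0, the largest, had more *Gria4*, at 331, 298 and 346 CPM, and cluster 5 less, at 127, 130.3 and 146 CPM. The *Gria4* ratios of all non-neuronal classes, precursor-like nuclei included, thus depend on the classes summed. Ratios to a sum with those clusters, and the part of free RNA from any of these cells, were not tested.

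**Figure D3:**
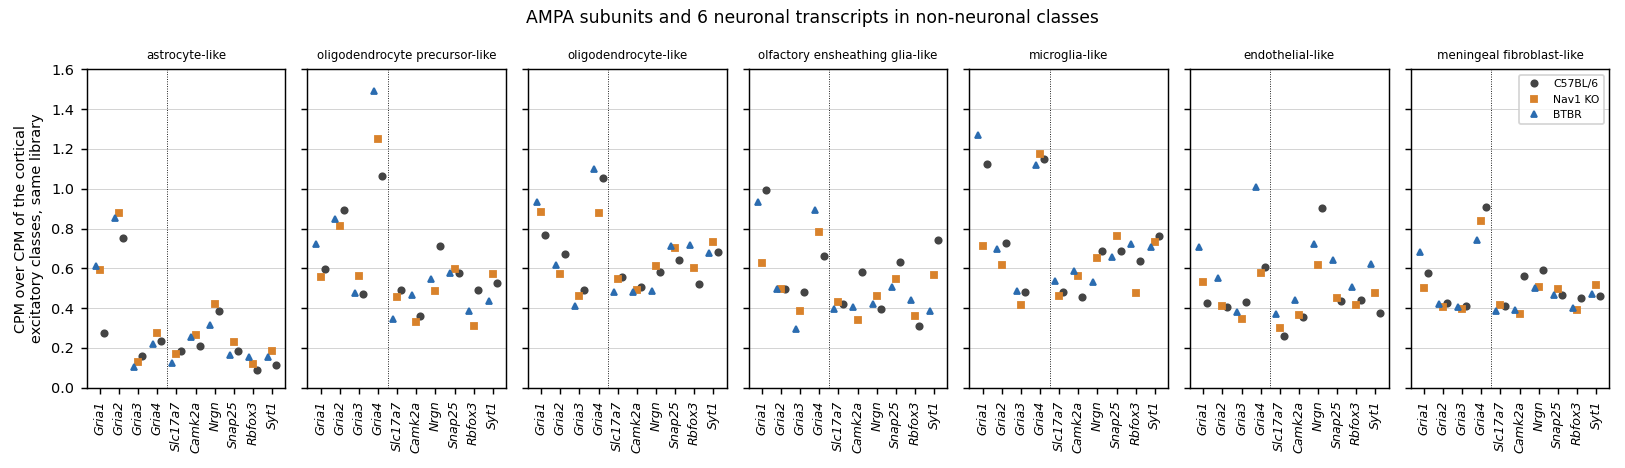
Level of the 4 subunits and of 6 neuronal transcripts in each non-neuronal class, as a ratio to the summed cortical excitatory classes of the same library (vertical axis), with 1 marker per library and the subunits left of the dotted line. In the astrocyte-like class *Gria2* stands at 0.755 to 0.878 above the 6 transcripts, and in the oligodendrocyte precursor-like class both *Gria2* and *Gria4* stand above them. Unnamed clusters are not in the sum.

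Between BTBR and C57BL/6, *Gria2* and *Gria3* were higher in BTBR in all 8 neuronal classes with at least 50 nuclei in both libraries, and *Gria1* was lower in 6 of them. The mitral or tufted-like class, with 36 C57BL/6 nuclei, was left out, and its *Gria2* was 4101 CPM in C57BL/6 and 3928 CPM in BTBR. The *Gria2* ratio was over 1 in 14 of 14 classes with at least 50 nuclei in both libraries, with the interval above 1 in 13. In the cortical excitatory classes it was 1.15 (interval 1.14 to 1.17), from 4834 to 5579 CPM. The layer 6 corticothalamic-like class had 1.32 (interval 1.29 to 1.35) and the layer 2/3-like class, made of different clusters in the 2 libraries, 1.08 (interval 1.06 to 1.10). *Gria3* was over 1 in 13 of 14 classes, at 1.24 (interval 1.21 to 1.27) in the cortical excitatory classes, 1.27 (interval 1.20 to 1.36) in the Sst-like and 1.61 (interval 1.26 to 2.09) in the olfactory bulb GABA-like class. Both genes were over 1 in all 8 neuronal classes, which was true of 17.7% of the 1360 genes with at least 50 counts in each of them. The median ratio of all genes was 1.01 in the cortical excitatory classes. Both subunits were above the median of genes in 8 of 8 neuronal classes. The share of genes above it in all 8 was not counted, nor that of genes over 1 in 13 or 14 of the 14 classes. Among the 14, *Gria2* of the oligodendrocyte-like, microglia-like, endothelial-like and meningeal fibroblast-like classes lay within the range of the 6 neuronal transcripts. The part of free neuronal RNA in those ratios was not tested.

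For *Gria1* the ratio was 0.774 (interval 0.732 to 0.819) in the cortical excitatory classes, from 281 to 218 CPM, and 15.99% of genes had a lower ratio. It was 0.791 (interval 0.732 to 0.855) in the layer 2/3-like, 0.775 (interval 0.693 to 0.865) in the layer 5 extratelencephalic-like, 0.754 (interval 0.665 to 0.855) in the layer 6 corticothalamic-like and 0.836 (interval 0.762 to 0.918) in the Sst-like class. Of the 8 neuronal classes 6 were below 1. While 14.6% of genes were below 1 in all 8, *Gria1* was not among them, and the share below 1 in at least 6 was not counted. The medium spiny-like class was at 1.02 (interval 0.896 to 1.15) and the olfactory bulb GABA-like class at 1.24 (interval 0.911 to 1.73). *Gria4* showed no such direction, with 4 of 8 neuronal classes on each side and 0.961 (interval 0.899 to 1.03) in the cortical excitatory classes. Most ratios were small. Past 1.5-fold were 5 of the 56 pairs of a subunit and a class, beside 18.0% of all pairs of a gene and a class, and these were *Gria1* in the near-projecting-like and astrocyte-like classes, *Gria3* in the olfactory bulb GABA-like class and *Gria2* and *Gria4* in the endothelial-like class, which held 54 C57BL/6 nuclei.

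Between the library labelled *Nav1* KO and C57BL/6 the subunits differed less. Past 1.5-fold were 2 of the 56 pairs, beside 15.8% of all pairs of a gene and a class, and both were *Gria1* in glia. The astrocyte-like class had a *Gria1* ratio of 2.12 (interval 1.46 to 3.17), from 77.7 to 165 CPM, and the microglia-like class 0.628 (interval 0.473 to 0.831). In the cortical excitatory classes the ratio was 0.992 (interval 0.946 to 1.04) for *Gria1*, 0.961 (interval 0.949 to 0.972) for *Gria2*, 0.915 (interval 0.894 to 0.936) for *Gria3* and 1.01 (interval 0.948 to 1.07) for *Gria4*. *Gria2* was below 1 in all 8 neuronal classes, as 23.9% of 1379 genes were, while 11.1% were above 1 in all 8 and none of the subunits was. The median ratio of all genes was itself 0.931 in the cortical excitatory classes, where *Malat1*, a nuclear non-coding RNA, took 25.0% of the C57BL/6 and 30.7% of the *Nav1* KO counts. Relative to that median *Gria2* was higher in 4 and lower in 4 of the 8 neuronal classes. With another scaling, by TMM factors of edgeR, the *Gria2* ratio of the cortical excitatory classes was 1.03, and with *Malat1* and mitochondrial counts taken out of the total it was 1.04. No direction is therefore given for *Gria2* in this comparison.

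**Figure D4:**
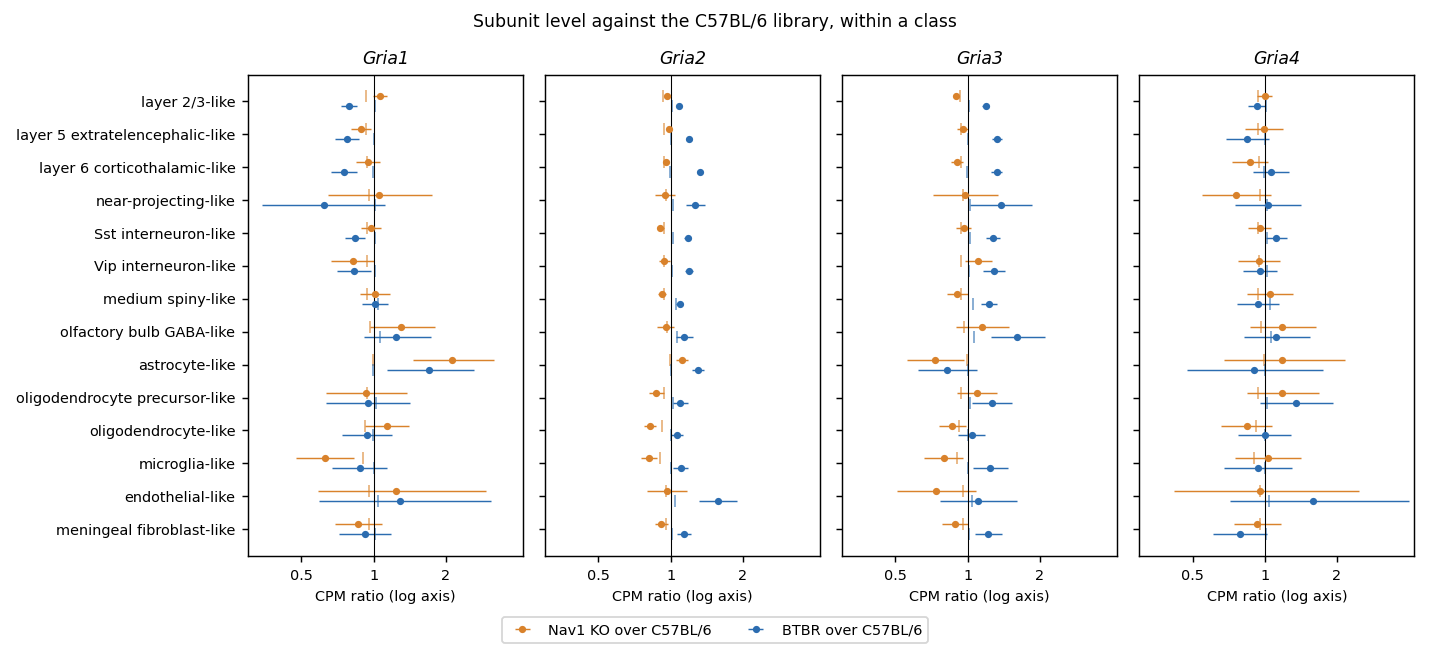
Ratio of the CPM of each subunit to that of the C57BL/6 library (log axis) in 14 classes, for *Nav1* KO and BTBR, with exact 95% intervals for counting error. Short upright ticks mark the median ratio of all genes in the class; the BTBR points of *Gria2* lie right of 1 in 14 of 14 classes, and the *Gria1* point of the *Nav1* KO astrocyte-like class lies at 2.12.

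The proteins that work with the AMPA receptor were described by lists chosen for their role. TARPs are auxiliary subunits that carry the receptor to the synapse and slow its closing. The median ratio of all genes to the cortical excitatory classes was 1.01 in the mitral or tufted-like, 1.06 in the Sst-like, 1.06 in the Vip-like, 0.972 in the medium spiny-like and 1.02 in the olfactory bulb GABA-like class, and the shares of all genes past 1.5-fold are those given above. Against the cortical excitatory classes, and past 1.5-fold in 3 of 3 libraries, TARP genes with at least 50 counts were 3 higher and 1 lower of 6 (median ratio 2.38) in the mitral or tufted-like class, 2 higher and 0 lower of 4 (median ratio 1.54) in the Sst-like class, 2 higher and 1 lower of 3 (median ratio 1.64) in the Vip-like class, 1 higher and 0 lower of 3 (median ratio 1.02) in the medium spiny-like class and 2 higher and 1 lower of 5 (median ratio 1.27) in the olfactory bulb GABA-like class. *Cacng3* was at 154 to 195 CPM in the layer 2/3-like class and 11.5 to 32.8 CPM in the near-projecting-like class. *Cacng4* was highest in oligodendrocyte precursor-like nuclei, at 249 to 288 CPM, followed by 65.2 to 82.2 CPM in the medium spiny-like class, while the cortical excitatory classes had 4.07 to 6.40 CPM. *Cacng5* stood at 30.6 to 47.9 CPM in the mitral or tufted-like, 27.1 to 40.3 CPM in the near-projecting-like and 27.3 to 55.5 CPM in the olfactory bulb GABA-like class, beside 2.25 to 6.499 CPM in the cortical excitatory classes. *Cacng2*, which encodes stargazin, was at 110.0 to 122 CPM in the Sst-like class.

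Counted in the same way, other auxiliary subunits were 2 higher and 0 lower of 6 (median ratio 0.791) in the mitral or tufted-like class, 1 higher and 1 lower of 7 (median ratio 0.830) in the Sst-like class, 2 higher and 1 lower of 7 (median ratio 0.916) in the Vip-like class, 2 higher and 0 lower of 6 (median ratio 1.32) in the medium spiny-like class and 0 higher and 0 lower of 5 (median ratio 1.16) in the olfactory bulb GABA-like class. *Shisa6* stood at 45.9 to 67.5 CPM in the mitral or tufted-like class and 3.09 to 5.45 CPM in the cortical excitatory classes. *Gsg1l*, which slows recovery of the receptor, was low in the Sst-like class (10.9 to 21.2 CPM against 44.7 to 54.6 CPM). The cornichon *Cnih3* was at 53.3 to 76.1 CPM in the layer 5 extratelencephalic-like and 17.7 to 21.3 CPM in the layer 2/3-like class. Genes of assembly and trafficking were 0 higher and 1 lower of 7 (median ratio 0.971) in the mitral or tufted-like class, 1 higher and 0 lower of 8 (median ratio 1.14) in the Sst-like class, 1 higher and 0 lower of 8 (median ratio 1.12) in the Vip-like class, 0 higher and 1 lower of 7 (median ratio 0.811) in the medium spiny-like class and 0 higher and 2 lower of 7 (median ratio 0.674) in the olfactory bulb GABA-like class. Genes of scaffolds and anchors were 1 higher and 2 lower of 9 (median ratio 0.865) in the mitral or tufted-like class, 2 higher and 3 lower of 9 (median ratio 0.686) in the Sst-like class, 1 higher and 2 lower of 8 (median ratio 0.9501) in the Vip-like class, 0 higher and 3 lower of 8 (median ratio 0.840) in the medium spiny-like class and 2 higher and 1 lower of 8 (median ratio 0.809) in the olfactory bulb GABA-like class. *Grip1*, a scaffold that binds *Gria2* and *Gria3*, was at 105 to 145 CPM in the Sst-like, 149.5 to 177 CPM in the Vip-like and 18.2 to 23.5 CPM in the layer 2/3-like class.

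*Adarb1* encodes the deaminase known to edit the Q/R codon of *Gria2*. It was at 210.0 to 245 CPM in the mitral or tufted-like, 176 to 271 CPM in the near-projecting-like, 177 to 183 CPM in the olfactory bulb GABA-like and 84.8 to 103 CPM in the layer 5 extratelencephalic-like class. In the astrocyte-like class, where *Gria2* made 91.8 to 93.3% of AMPA counts, *Adarb1* was at 26.9 to 30.0 CPM. The editing genes were 2 higher and 0 lower of 3 (median ratio 1.90) in the mitral or tufted-like class, 1 higher and 0 lower of 3 (median ratio 1.14) in the Sst-like class, 1 higher and 0 lower of 3 (median ratio 1.22) in the Vip-like class, 1 higher and 0 lower of 3 (median ratio 0.846) in the medium spiny-like class and 1 higher and 0 lower of 3 (median ratio 1.52) in the olfactory bulb GABA-like class, and the gene that was higher in all 5 classes was *Adarb2*, which has no known editing activity and is in the marker list of Lamp5 interneurons.

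Over the 46 pairs of a class and a library with at least 50 nuclei, the gene among 8347 whose log2(CPM + 5) followed *Gria4* most closely was *Adarb1* (Pearson r = 0.86), followed by *Crtac1* (0.84) and *Usp29* (0.82). For *Gria1* the 3 nearest genes were *C78859* (0.81), *Neto1*, an auxiliary subunit of kainate receptors (0.79), and *Grin2b*, an NMDA receptor subunit (0.77). For *Gria2* they were *Soga3* (0.85), the cell adhesion gene *Nrcam* (0.79) and *Bbof1* (0.78), and for *Gria3* the dynein gene *Dync1i2* (0.87), *Gm10419* (0.86) and *Rnf112* (0.84). The subunits followed each other less, from r = 0.10 for *Gria2* with *Gria4* to 0.56 for *Gria1* with *Gria3*. The pairs share 3 libraries and free RNA, so these values are descriptions.

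The other ionotropic glutamate receptors gave a frame for the AMPA counts. The summed AMPA subunit counts were 2.22 to 2.39 times the summed NMDA subunit counts in the layer 2/3-like class, 2.62 to 3.06 times in the layer 5 extratelencephalic-like, 1.84 to 2.17 times in the Vip-like and 4.93 to 6.18 times in the astrocyte-like class. Counts of different genes are not on 1 scale, so these ratios compare classes and do not measure an excess of AMPA over NMDA transcripts. NMDA subunit genes were 1 higher and 2 lower of 5 (median ratio 0.770) in the mitral or tufted-like class, 2 higher and 0 lower of 5 (median ratio 0.910) in the Sst-like class, 2 higher and 0 lower of 5 (median ratio 1.03) in the Vip-like class, 0 higher and 0 lower of 3 (median ratio 0.989) in the medium spiny-like class and 2 higher and 1 lower of 5 (median ratio 1.16) in the olfactory bulb GABA-like class, where *Grin3a*, one of the genes higher in the Sst-like class, is also a marker used to name it. *Grin2c*, an NMDA subunit known from astrocytes, was at 237 to 304 CPM in the astrocyte-like and 1.22 to 3.61 CPM in the cortical excitatory classes. Kainate subunit genes were 1 higher and 2 lower of 5 (median ratio 0.782) in the mitral or tufted-like class, 1 higher and 1 lower of 5 (median ratio 1.5) in the Sst-like class, 2 higher and 0 lower of 5 (median ratio 1.06) in the Vip-like class, 1 higher and 0 lower of 3 (median ratio 1.14) in the medium spiny-like class and 0 higher and 0 lower of 3 (median ratio 1.49) in the olfactory bulb GABA-like class. *Grik1* was at 165 to 215 CPM in the Sst-like, 146 to 219 CPM in the Vip-like and 164 to 219 CPM in the near-projecting-like class, and at 9.01 to 11.9 CPM in the cortical excitatory classes. For *Gria4* the intervals of the near-projecting-like and Sst-like classes overlapped in each library.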

How the data were processed

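Single nuclei of pooled PFC were profiled in 3 libraries. The authors deposited the counts of each library as a filtered matrix, with 1 UMI count per gene and nucleus, made with Cell Ranger 6.0.0 on mm10 per the labels. Whether intronic reads were counted is not given in the sources used here. Kept nuclei had 200 or more genes and less than 10% of counts from mitochondrial genes, and a median depth of 2074 UMIs in C57BL/6, 2754 in *Nav1* KO and 2510 in BTBR. They were merged without integration in Seurat 5.3.0 (R 4.3.3), scaled to 10000 counts per nucleus, and clustered on 2000 variable genes without *Gria1* to *Gria4*, 30 principal components and resolution 1, which is finer than in the study. A cluster took the name of the marker list with the highest median fold over the other clusters if that was at least 1.5, at least 3 markers were found in 5% or more of its nuclei, and the second list stayed below 0.9 of it. The list also needed a marker among the 10 leading genes of the cluster, with no other list holding more. Excitatory names needed more *Slc17a7* and *Slc17a6* than *Gad1* and *Gad2*, and inhibitory names the reverse. These limits were set after the data were seen. The members, gene lists and comparisons were chosen with earlier results of these data known. Counts were summed per class and library (Python 3.11.15, numpy 2.4.6, scipy 1.17.1, pandas 2.3.3) and given as CPM with exact Poisson intervals, as shares with exact Clopper-Pearson intervals or as ratios with intervals from the binomial split of counts, all at 95%. The steps were tested on simulated data. Scrublet (scanpy 1.11.5) called 1 C57BL/6, 1 *Nav1* KO and 0 BTBR nuclei as doublets, which was not usable, and no nucleus was removed. In an alternative the 10% of nuclei with the highest scores were left out. Genes named are the 4 subunits, the lists of partner, NMDA and kainate genes, the 3 genes nearest to each subunit in r among those with at least 50 CPM in 1 pair, reference genes, class markers and *Nav1*. Gene positions and sequences are from the GENCODE annotation of GRCm38, the assembly of mm10. A table of protein sequences was not used here.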

Additional observations from a re-analysis of the deposited data

Results flagged for a closer look

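Some subunits had library ratios with intervals on opposite sides of 1 in different classes. The differences between classes were not tested, since each group is 1 library, and the intervals cover counting error only. For *Gria1* in BTBR over C57BL/6, the astrocyte-like class stood at 1.71 and the layer 2/3-like (0.791), layer 5 extratelencephalic-like (0.775), layer 6 corticothalamic-like (0.754), Sst-like (0.836) and Vip-like classes (0.831) stood below 1. For *Gria1* in *Nav1* KO over C57BL/6, the astrocyte-like class stood at 2.12, with the layer 5 extratelencephalic-like class at 0.885 and the microglia-like class at 0.628. In both comparisons the same C57BL/6 value, 77.7 CPM from 34 counts, is the lower side of the astrocyte-like ratio. For *Gria2* in *Nav1* KO over C57BL/6, the astrocyte-like class stood at 1.12. The layer 2/3-like (0.961), layer 6 corticothalamic-like (0.956), Sst-like (0.904), Vip-like (0.942), medium spiny-like (0.921), oligodendrocyte-like (0.817), oligodendrocyte precursor-like (0.872), microglia-like (0.810) and meningeal fibroblast-like classes (0.914) stood below 1. The median ratio of all genes was 0.996 in the astrocyte-like class and between 0.906 and 0.957 in these 9 classes.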

How the results depend on the processing

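Over 13 other settings 1224 values were recomputed. Of these, 778 moved by no more than their counting error, 440 moved by more and 6 changed side of 1. The 6 were among 520 level ratios. A change of side was counted only where the main ratio differed from 1 by more than its counting error. Other crossings of 1 are within the 778 or the 440. The spread between the libraries was not part of the counting error. With the clustering settings of the study the *Gria2* share of the Sst-like class was 73.3% (69.1% in the report), the astrocyte-like *Gria2* ratio 0.902 (0.826), the *Gria2* ratio of *Nav1* KO over C57BL/6 in cortical excitatory classes 0.945 (0.961), the mitral or tufted-like *Gria3* ratio 0.332 (0.271), and the precursor-like *Gria4* ratio turned to 0.865. At resolution 0.5 the astrocyte-like *Gria2* ratio was 0.738 and the near-projecting-like *Gria4* share 5.05% (6.99%). At resolution 2 the Sst-like *Gria1* ratio was 2.07 (1.80), the astrocyte-like *Gria2* ratio 0.874 and the BTBR ratio of *Gria2* in cortical excitatory classes 1.10 (1.15). With each library clustered alone, the Sst-like *Gria1* ratio was 1.93, the cortical BTBR ratio of *Gria1* 0.911 (0.774) and of *Gria2* 1.19, the Sst-like *Gria2* share 67.4%, the astrocyte-like *Gria2* ratio 0.779 and the cortical *Nav1* KO ratio of *Gria2* 0.977. With classes from markers alone the same were 2.39 for *Gria1* in the Sst-like class, 67.4% for its *Gria2* share, 0.856 in the astrocyte-like class, 1.19 and 0.977 for the cortical BTBR and *Nav1* KO ratios of *Gria2* and 7.88% for the near-projecting-like *Gria4* share, while the medium spiny-like *Gria4* ratio turned to 1.00 and the microglia-like one to 0.978. Without the nuclei of high doublet scores the Sst-like *Gria2* share was 68.5%, and with nuclei of at least 1000 UMIs the astrocyte-like *Gria2* ratio was 0.855. As a mean of single nuclei the Sst-like *Gria1* ratio was 1.90, the cortical BTBR ratios of *Gria1* and *Gria2* 0.824 and 1.18, the Sst-like *Gria2* share 67.6%, the cortical *Nav1* KO ratio of *Gria2* 0.923, the mitral or tufted-like *Gria3* ratio 0.230, and the microglia-like *Gria4* ratio turned to 0.928. With *Malat1* and mitochondrial counts out of the total the Sst-like *Gria1* ratio was 1.69, the astrocyte-like *Gria2* ratio 0.922, the cortical BTBR ratio of *Gria2* 1.17 and the *Nav1* KO one turned to 1.04, as it did with TMM factors (1.03). Per exonic length the Sst-like *Gria2* share was 52.5% and the near-projecting-like *Gria4* share 14.4%, and per gene span, a setting chosen after seeing the data, 84.9% and 2.53%. The cause of these moves was not tested, apart from the scalings, which change the total or the length alone. No paired analysis was possible because each group is 1 library with no replicate. Intervals of small classes were wide, and a *Gria4* level near 40 CPM rests on 18 to 47 counts per library in the astrocyte-like class. Thinning to 500 UMIs moved 12 of 12 recomputed shares of nuclei with a UMI, and no thinning moved 9 of 12.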
